A study of Mus musculus with 12 samples.

Results

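The epicardial and mesothelial marker genes of the left atrium (LA) were 10 genes taken by name from the table of read counts: *Wt1*, *Tbx18*, *Bnc1*, *Upk3b*, *Upk1b*, *Msln*, *Lrrn4*, *Krt8*, *Krt19* and *Aldh1a2*. They were 10 of 54658 gene names, they were listed by name with no cut on a measured value, and all 10 were among the 13541 genes tested. The comparison asked how these genes differ in bulk LA RNA after Notch activation in cardiomyocytes. iNICD mice carried amHC-rtTA and TetO-NICD, so that doxycycline drives the Notch1 intracellular domain (NICD) from a promoter active in cardiomyocytes. Littermate controls carried amHC-rtTA alone, on the same mixed genetic background. Mice of both genotypes were aged 2 to 3 months when put on dox chow, ate it for 3 weeks, and were still on it at harvest. Each LA was its own library, giving 6 controls (4 female, 2 male) and 6 iNICD (3 female, 3 male). The transactivator and the dox were therefore shared by every mouse, and neither transgene is directed to the epicardium.

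The epicardium is the mesothelial sheet on the outside of the heart, and it is a simple squamous epithelium that keeps keratins and apical membrane proteins. In the embryo it gives rise to fibroblasts and mural cells under the transcription factors WT1 and TBX18 and under retinoic acid made by RALDH2, the product of *Aldh1a2*. In the adult it is largely quiescent and is known to switch embryonic genes back on after injury. Mesothelin, uroplakins 3B and 1B and LRRN4 mark mesothelium in general, so the same genes are expressed by the pericardium and pleura.

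Total counts ranged from 21432632 to 27182038 per library, and the 10 genes together took 0.0190% to 0.0405% of them. *Notch1*, which the transgene contributes to, had 2335 to 3311 counts in controls and 71187 to 107667 in iNICD, which matched every label. Control replicate 5, a male, stood apart: 1793 tested genes lay at least 2-fold from the mean of its group, against 187 to 423 in the other 11 libraries. The main values that this library moves are given without it too. In bulk tissue, fewer mesothelial cells and less RNA per cell cannot be told apart.

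Promoter windows, from 250 bases before to 50 after the gene start, were matched in RefSeq (GRCm38.p6) for 6 of the 10 genes: *Tbx18*, *Bnc1*, *Upk3b*, *Lrrn4*, *Krt8* and *Aldh1a2*. Windows of *Wt1*, *Upk1b*, *Msln* and *Krt19* were not used here. NICD acts on chromatin through RBPJ, whose core site is TGGGAA, and the windows were searched for it on both strands (TTCCCA on the other). It was found in 3 of the 6 windows, against 25.6% of the 32851 windows searched. The 3 windows with a match are printed, and that of *Upk3b*, the most abundant of the 10 genes, as a window without a match. The transgenes are not directed to the epicardium, and whether NICD or RBPJ acts at these windows was not tested. They lie on the minus strand at chr9:87731211-87731510 (*Tbx18*), chr15:102004293-102004592 (*Krt8*) and chr2:132880813-132881112 (*Lrrn4*), and on the plus strand at chr5:136038246-136038545 (*Upk3b*). Capitals mark the match, and each sequence is written 5′ to 3′ on the strand of its gene.
Tbx18: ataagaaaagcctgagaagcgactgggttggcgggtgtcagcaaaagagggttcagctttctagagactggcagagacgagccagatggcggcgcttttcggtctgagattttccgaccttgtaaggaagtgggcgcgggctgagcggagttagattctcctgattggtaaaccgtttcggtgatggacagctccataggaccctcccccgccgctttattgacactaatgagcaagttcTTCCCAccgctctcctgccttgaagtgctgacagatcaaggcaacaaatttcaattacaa
Krt8: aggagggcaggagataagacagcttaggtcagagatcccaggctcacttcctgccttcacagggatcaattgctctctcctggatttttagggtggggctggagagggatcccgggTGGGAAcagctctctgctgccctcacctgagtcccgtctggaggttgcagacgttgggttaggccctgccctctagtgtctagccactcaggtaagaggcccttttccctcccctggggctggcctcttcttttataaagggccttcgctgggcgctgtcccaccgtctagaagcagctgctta
Lrrn4: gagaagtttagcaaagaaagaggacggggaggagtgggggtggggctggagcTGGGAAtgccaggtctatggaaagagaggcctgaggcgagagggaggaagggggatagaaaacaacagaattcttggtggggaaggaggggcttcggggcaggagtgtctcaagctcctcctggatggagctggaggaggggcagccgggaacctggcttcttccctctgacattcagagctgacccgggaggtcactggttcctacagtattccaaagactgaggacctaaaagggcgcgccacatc
Upk3b: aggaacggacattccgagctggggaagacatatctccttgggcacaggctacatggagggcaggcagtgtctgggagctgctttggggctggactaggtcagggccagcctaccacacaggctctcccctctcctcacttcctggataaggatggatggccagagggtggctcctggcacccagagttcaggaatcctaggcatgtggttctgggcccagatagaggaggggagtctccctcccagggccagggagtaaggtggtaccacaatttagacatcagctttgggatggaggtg
The first base of the match lay 10 bases upstream of the RefSeq gene start in *Tbx18*, 134 in *Krt8* and 198 in *Lrrn4*. The GENCODE M21 annotation starts *Krt8* at base 102004482 and *Lrrn4* at base 132880891, each upstream of its RefSeq start. By that annotation the *Krt8* match lies just inside the gene. A match of 6 letters is a description of the sequence and not a binding site. All 3 of these genes had log2 fold changes below 0 in the iNICD LA, as had the 3 genes whose windows held no match, and none of the 6 passed the test.

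All 10 marker genes were detected in every library, and by control means per length *Upk3b* was at the top and *Bnc1* at the bottom. By iNICD means *Krt8* (1.64 RPKM) was below *Bnc1* (1.74). In control LA, *Upk3b*, an apical membrane protein of mesothelium and urothelium, had 34.7 ± 5.10 RPKM (reads per kilobase of gene, scaled to library size; SD, n = 6), and *Msln*, the surface protein mesothelin, had 29.6 ± 4.02. *Aldh1a2* followed at 13.7 ± 4.58 RPKM, then *Krt19* at 12.9 ± 3.58, *Lrrn4* at 9.95 ± 2.79 and *Upk1b* at 8.71 ± 1.68. The transcription factors were lowest, with *Tbx18* at 3.34 ± 0.486 RPKM, *Wt1* at 2.52 ± 0.375 and *Bnc1* at 1.93 ± 0.262, and *Krt8* lay among them at 2.72 ± 1.93. Among neighbours in this order, *Msln* exceeded *Aldh1a2*, *Upk1b* exceeded *Tbx18* and *Wt1* exceeded *Bnc1* in all 6 control libraries. *Upk3b* exceeded *Msln* in 5 of 6, *Aldh1a2* exceeded *Krt19* in 4 of 6, *Krt19* exceeded *Lrrn4* in 4 of 6, and *Lrrn4* exceeded *Upk1b* in 4 of 6. *Tbx18* exceeded *Krt8* in 5 of 6, and *Krt8* exceeded *Wt1* in 2 of 6, control replicate 5 being 1 of them. The gene lengths are the deposited ones, which for 9 of 10 genes equal the summed exon bases of GENCODE M21. For *Msln* the deposited length is 2114 bases and that of M21 is 3064, so its RPKM depends on the annotation more than the others do.

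No marker gene passed the test between iNICD and control LA, and all 10 had log2 fold changes below 0. The count is 0 of 10 in edgeR's quasi-likelihood test at an adjusted p of 0.05, against 4.12% of all tested genes called (2.78% higher and 1.34% lower). The 10 log2 fold changes ran from -0.73 to -0.14 with a median of -0.28. Over all tested genes the median was -0.01, and 51.3% lay below 0. At an unadjusted p under 0.05, 1 of the 10 (*Tbx18*) was lower, against 8.09% of all genes that were lower at that threshold. DESeq2 also called 0 of 10, against 7.84% of the genes it tested, with 2 (*Tbx18* and *Upk3b*) at an unadjusted p under 0.05, where 19.2% of all genes were. The groups overlapped in all 10, whereas 1.25% of tested genes had every iNICD library below every control and 2.58% had every one above. Without control replicate 5 the count was again 0 of 10, against 5.9% of all genes, and all 10 log2 fold changes again lay below 0. The genes are correlated across libraries, as described further on, so 10 values on the same side of 0 are not 10 independent observations.

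**Figure D1:**
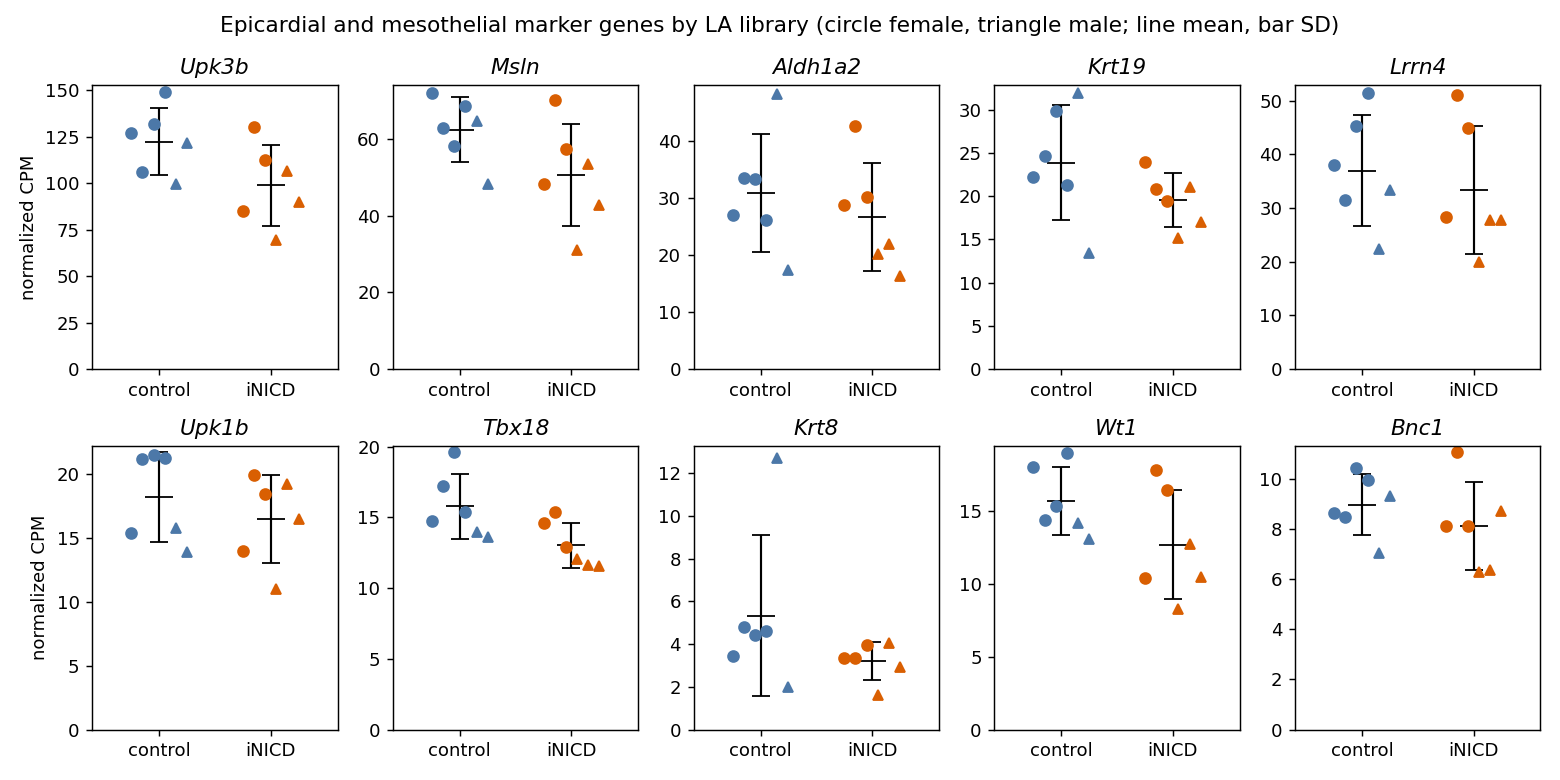
Normalized CPM of each marker gene (y axis, from 0) in the 6 control and 6 iNICD LA libraries, with circles for females, triangles for males, a line for the mean and a bar for the SD. The groups overlap in every panel, iNICD libraries reach below the lowest control in 9 of the 10 panels (not *Krt19*), and the control triangle at 12.7 in the *Krt8* panel is replicate 5.

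The 3 transcription factors differed by 0.15 to 0.30 on the log2 scale. *Tbx18*, a T-box factor of the embryonic proepicardium (chr9:87702800-87731260, minus strand, mm10), came nearest to a difference. Its normalized CPM (counts scaled to library size with TMM factors) in control replicates 1 to 6 were 14.8, 17.2, 19.7, 15.4, 13.9 and 13.6. In iNICD replicates 1 to 6 they were 14.6, 15.3, 12.9, 12.1, 11.7 and 11.6. The upper iNICD libraries, replicates 1 and 2, lay inside the control range, and the other 4 lay below all controls. The log2 fold change was -0.28 ± 0.11 (SE; 95% interval -0.51 to -0.04), with an adjusted p of 0.203. The two-sided exact permutation test of this single gene gave p = 0.0281, where the smallest p that 6 against 6 libraries can give is 0.0022 and the 10 permutation p-values ran from 0.0281 to 0.524.

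*Wt1*, the Wilms tumour zinc finger factor and the classical epicardial marker (chr2:105126529-105173616, plus strand), had 18.0, 14.4, 15.3, 18.9, 14.1 and 13.0 normalized CPM in the controls. The iNICD libraries had 10.4, 17.8, 16.4, 8.29, 12.7 and 10.5. They split into 2 libraries at control level, replicates 2 and 3, and 4 below every control. The log2 fold change was -0.30 ± 0.18 (SE; adjusted p = 0.409), and the 95% interval of -0.69 to 0.08 includes 0. Its antisense neighbour *Wt1os* had 5 to 25 counts per library, against 219 to 479 for *Wt1*. *Bnc1*, which encodes the zinc finger protein basonuclin 1, had 8.96 ± 1.22 normalized CPM in controls and 8.11 ± 1.76 in iNICD (SD, n = 6 each), a log2 fold change of -0.15 ± 0.15 (SE; adjusted p = 0.648). This value was -0.08 without iNICD replicate 4 or 5 and -0.25 without iNICD replicate 2.

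*Upk3b*, *Msln* and *Lrrn4*, which encode surface proteins of mesothelium, had the highest normalized CPM of the 10 genes in controls. *Upk3b* (chr5:136038496-136046487, plus strand) had 127, 106, 132, 149, 99.4 and 122 normalized CPM in controls. The iNICD libraries had 84.9, 130.1, 112, 69.3, 107 and 90.0. In the iNICD group 3 libraries lay below all controls, and replicate 2 lay near the top of the control range. With 1829 to 3772 counts per library its counting error is small beside this spread. The log2 fold change was -0.31 ± 0.14 (SE; adjusted p = 0.291), with a 95% interval of -0.62 to 0.0038.

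*Msln* had 72.2, 63.1, 58.2, 68.7, 64.9 and 48.2 normalized CPM in controls and 48.4, 70.3, 57.4, 31.1, 53.6 and 42.8 in iNICD. Replicate 4, at 31.1, was lowest of the 12 libraries, and only it and replicate 6 lay below the lowest control. The log2 fold change of -0.31 ± 0.16 (SE; adjusted p = 0.362) was the size of that of *Upk3b*, and was -0.20 without iNICD replicate 4. *Lrrn4*, a leucine-rich repeat neuronal protein used as a mesothelial marker, was the most variable of the surface genes. Its values were 38.1, 31.4, 45.3, 51.4, 22.3 and 33.4 in controls and 28.4, 51.0, 44.8, 20.0, 27.7 and 27.7 in iNICD. Each group held libraries near both ends of the whole range, and the log2 fold change of -0.15 ± 0.24 (SE; adjusted p = 0.785) had a 95% interval of -0.67 to 0.37. It moved with single libraries, from -0.04 without control replicate 4 or iNICD replicate 4 to -0.26 without control replicate 5 or iNICD replicate 3 and -0.31 without iNICD replicate 2. *Upk1b*, the tetraspanin partner of uroplakin 3, had 18.2 ± 3.52 normalized CPM in controls and 16.5 ± 3.45 in iNICD (SD, n = 6 each), a log2 fold change of -0.14 ± 0.16 (SE; adjusted p = 0.696). It was -0.09 without control replicate 3 or 4 and -0.05 without iNICD replicate 4.

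The values of the keratins and *Aldh1a2* were nearer to 0 without control replicate 5. *Krt8*, a type II keratin of simple epithelia (chr15:101996698-102004482, minus strand), had 3.44, 4.80, 4.43, 4.62, 12.7 and 1.99 normalized CPM in controls and 3.37, 3.35, 3.94, 1.63, 4.05 and 2.95 in iNICD. Control replicate 5 had 12.7 where no other library exceeded 4.80, and control replicate 6 was the lowest control. The log2 fold change of -0.73 ± 0.38 (SE; adjusted p = 0.343) was -0.26 without replicate 5. *Krt8* was also the least counted of the genes, with 43 to 272 counts per library.

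*Krt19*, a type I keratin, had 23.9 ± 6.64 normalized CPM in controls and 19.6 ± 3.14 in iNICD (SD, n = 6 each). No iNICD library lay below the lowest control, and the log2 fold change of -0.29 ± 0.18 (SE; adjusted p = 0.441) was -0.19 without control replicate 5. *Aldh1a2* (chr9:71215789-71296243, plus strand) had 27.0, 33.5, 33.3, 26.2, 48.3 and 17.3 normalized CPM in controls and 28.8, 42.7, 30.1, 20.2, 22.0 and 16.3 in iNICD. Its highest library was control replicate 5 and its second highest iNICD replicate 2. The log2 fold change of -0.21 ± 0.25 (SE; adjusted p = 0.705) was -0.04 without control replicate 5, -0.10 without iNICD replicate 6, -0.33 without control replicate 6 and -0.40 without iNICD replicate 2, and among females alone it was 0.18 ± 0.16 (SE; adjusted p = 0.606).

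**Figure D2:**
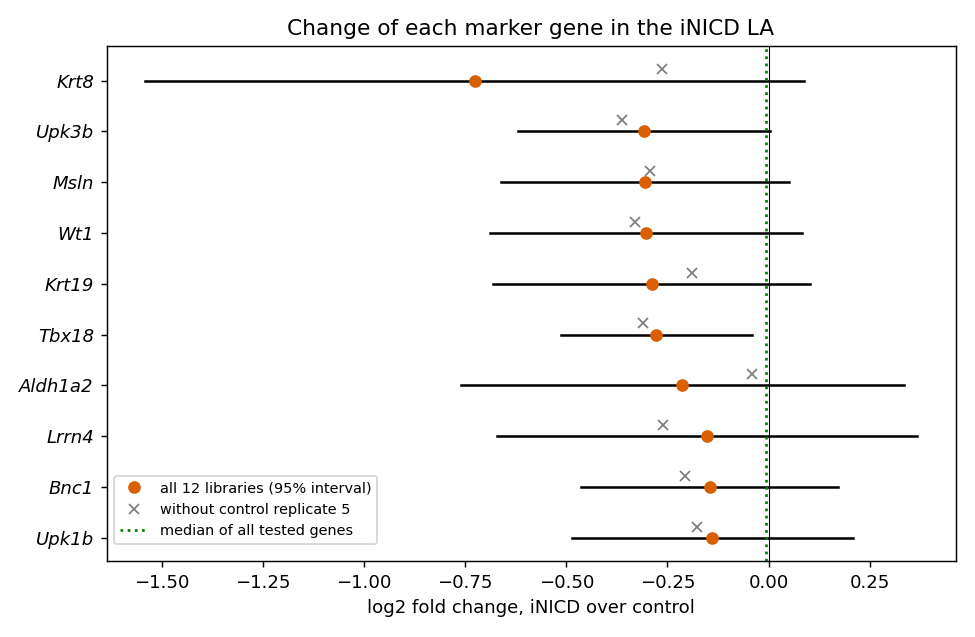
Log2 fold change of iNICD over control LA (x axis) for each marker gene (y axis), with 95% intervals from edgeR over all 12 libraries, crosses for the fit without control replicate 5, and a dotted line at the median of all tested genes (-0.01). All 10 points lie below 0 and only the interval of *Tbx18* (-0.51 to -0.04) excludes it, and the cross of *Krt8* moves to -0.26 and that of *Aldh1a2* to -0.04.

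Averaged over the 10 genes, the library mean of log2 CPM was 4.49 ± 0.20 in controls and 4.22 ± 0.31 in iNICD (SD, n = 6 each), a difference of -0.28. The difference was -0.18 without iNICD replicate 4, -0.26 without control replicate 5 and -0.14 among females only. The mean over all tested genes differed by 0.03 between the groups, in the opposite direction. Control libraries ran from 4.10 to 4.66 and iNICD libraries from 3.73 to 4.63. In iNICD, 5 of 6 libraries lay below the control median of 4.55, and replicates 4 and 6 lay below the lowest control. Summed normalized CPM gave 341 ± 35.7 in controls and 283 ± 65.1 in iNICD, and here 4 of 6 iNICD libraries lay below all controls. Without *Krt8*, *Krt19* and *Aldh1a2*, for which control replicate 5 was the highest control, the difference in the mean was -0.25. As a mean over genes chosen by name it is a description and carries no test.

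The marker genes varied together from library to library. Across all 12 libraries, iNICD replicate 4 was the lowest for 7 of the 10 genes and within the iNICD group for 8, and iNICD replicate 2 was the highest of its group for 8. Among controls, replicate 6 was the lowest for 7 genes. Control replicate 5 behaved unlike the rest, being the highest control for *Krt8*, *Krt19* and *Aldh1a2* and the lowest for 3 others, *Upk3b*, *Lrrn4* and *Bnc1*.

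Correlations were taken over the 12 libraries after subtracting each group's mean, so that the group difference does not enter. Sex was not subtracted, so differences between males and females, described further on, remain in these correlations. Of the 45 pairs, 42 had a Pearson r above 0 and 23 above 0.5, with a median of 0.52. Without control replicate 5 the median was 0.59, 29 pairs exceeded 0.5, and the lowest r rose from -0.18 to 0.19. At an adjusted p of 0.05 over the 45 pairs, 7 passed a permutation test within groups. *Upk3b* and *Lrrn4* had r = 0.92 (permutation p = 1.2e-04, adjusted 0.00427) and Spearman's rho 0.83 (permutation p = 0.00273, adjusted 0.0427). *Wt1* and *Msln* had r = 0.91 (permutation p = 1.9e-04, adjusted 0.00427) and rho 0.93 (permutation p = 3.2e-04, adjusted 0.0144). With the 2 libraries farthest from the median left out, r was 0.86 for the first of these pairs and 0.80 for the second. The keratins *Krt8* and *Krt19* had r = 0.83 (permutation p = 0.00657, adjusted 0.0422) and rho 0.77 (permutation p = 0.00503, adjusted 0.0453), and r = 0.61 without the 2 farthest libraries. *Krt19* and *Aldh1a2* had r = 0.79 (permutation p = 0.00378, adjusted 0.0283) and rho 0.70 (permutation p = 0.0184, adjusted 0.106), and r = 0.60 without the 2 farthest libraries. *Krt8* and *Bnc1* were the least alike, at r = -0.18.

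**Figure D3:**
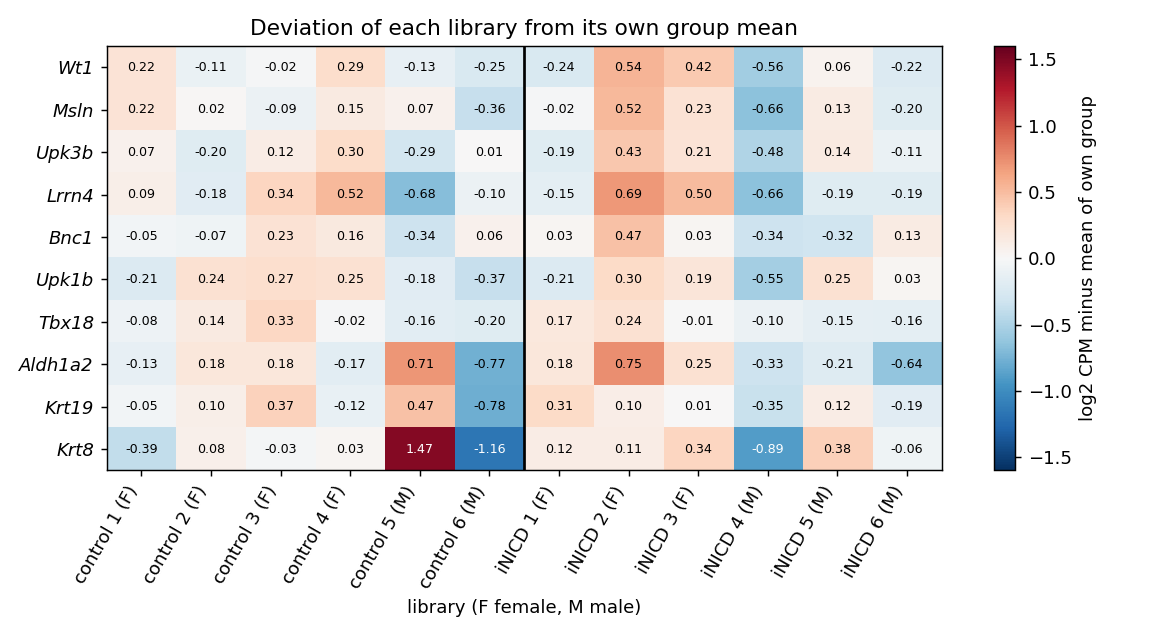
Log2 CPM of each marker gene (rows) in each LA library (columns, F female, M male) minus the mean of its own group, with red above and blue below the mean. The iNICD replicate 4 column is blue for all 10 genes (-0.89 for *Krt8*) and the iNICD replicate 2 column is red for all 10, while control replicate 5 is dark red for *Krt8* (1.47) and blue for *Lrrn4* (-0.68).

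Among the genes that were not of the 10, those whose deviations followed the library mean of the markers most closely over the 12 libraries were *Myrf* (r = 0.95), *Krt7* (r = 0.93), *B3gnt7* (r = 0.91), *Gng4* (r = 0.90) and *Lpxn* (r = 0.90). This ranking is a description over 13531 genes and has no test, and differences between the sexes remain in it too. *Krt7*, a keratin of simple epithelia, was also on the list of further mesothelial markers. *Myrf*, which encodes a membrane-bound transcription factor, had 30.5 ± 6.23 normalized CPM in controls and 23.8 ± 5.40 in iNICD (SD, n = 6 each; log2 fold change -0.36 ± 0.17, SE; adjusted p = 0.296). None of the 5 passed the test between genotypes.

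Male libraries lay lower than female ones for most of these genes, in a comparison added after the data had been seen that called none of them in the edgeR fit. With genotype as a covariate, 9 of the 10 genes had male over female log2 fold changes below 0, against 48.7% of all tested genes, and the median was -0.28 against 0.01 over all genes. edgeR's quasi-likelihood test called 0 of the 10 at an adjusted p of 0.05, where 0.288% of all genes were called, and 4 (*Lrrn4*, *Tbx18*, *Wt1* and *Msln*) had an unadjusted p under 0.05 in the direction of lower male values, against 6.55% of all genes. *Lrrn4* had 41.5 ± 9.11 normalized CPM in females (SD, n = 7) and 26.2 ± 5.24 in males (SD, n = 5). Of the 5 males, 4 lay below all 7 females. Its log2 fold change was -0.65 ± 0.18 (SE; adjusted p = 0.147 by edgeR and 0.0214 by DESeq2, the 1 call DESeq2 made among the 10, where it called 3.66% of all genes). *Wt1* differed by -0.40 ± 0.15 (SE; adjusted p = 0.274) and *Tbx18* by -0.28 ± 0.08 (SE; adjusted p = 0.182).

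Within genotypes, every male lay below every female for *Wt1* and *Tbx18* in controls (2 of 10 genes, against 6.44% of all tested genes) and for *Tbx18*, *Lrrn4* and *Aldh1a2* in iNICD (3 of 10, against 8.49%). The library mean of log2 CPM was 4.57 ± 0.10 in 4 control females, 4.10 and 4.59 in the 2 control males, 4.43 ± 0.21 in 3 iNICD females and 4.01 ± 0.26 in 3 iNICD males. Control replicate 5 is 1 of only 2 control males. Without it, all 10 genes had log2 fold changes below 0 (52.2% of all genes), the median was -0.46, 6 were lower in males at an unadjusted p under 0.05 (7.59% of all genes), and 1, *Aldh1a2*, passed the adjusted test (0.325% of all genes called). *Aldh1a2* then differed by -0.80 ± 0.14 (SE; adjusted p = 0.0387, edgeR), against -0.35 ± 0.25 (SE; adjusted p = 0.573) with all 12 libraries. Without iNICD replicate 2 instead, the male over female value of *Aldh1a2* was -0.21. *Krt8* turned from 0.23 to -0.57 without control replicate 5. The genotypes held different shares of males, and with sex as a covariate no marker gene was called between genotypes either. All 10 log2 fold changes stayed below 0 in that fit, where *Lrrn4* went from -0.15 to -0.06 and *Upk1b* from -0.14 to -0.08, and the other 8 moved by less than 1.5 times.

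Whether the genotype effect differed between the sexes was tested with an interaction term. No gene of 13541 was called by edgeR (lowest adjusted p = 0.916), with 501 at an unadjusted p under 0.05 and none of the 10 among them. DESeq2 called 1 gene, which was none of the 10. With all 12 libraries, the lowest interaction p among the 10 was that of *Aldh1a2*, at -0.92 ± 0.44 (SE; unadjusted p = 0.0614). Its genotype difference in mean log2 CPM was 0.16 in females and -0.58 in males, and 0.16 in males without control replicate 5, which leaves 1 control male. A fit without that library, added after the data had been seen, takes the lone control male to vary like the other groups. In it the interaction was -0.01 ± 0.30 for *Aldh1a2* (SE; unadjusted p = 0.974), turned from -0.16 to 0.59 ± 0.27 for *Krt19* (SE; unadjusted p = 0.0564) and from -1.07 to 0.80 ± 0.51 for *Krt8* (SE; unadjusted p = 0.146), with adjusted p-values of 0.939 for both keratins.

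**Figure D4:**
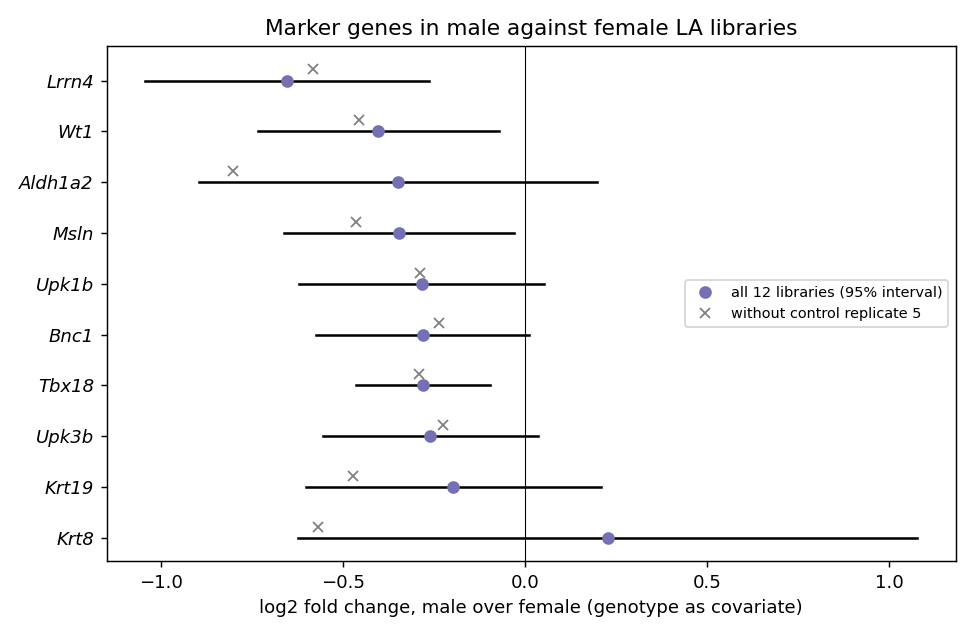
Log2 fold change of male over female LA libraries (x axis), with genotype as covariate, for each marker gene (y axis), with 95% intervals from edgeR over all 12 libraries and crosses for the fit without control replicate 5. The points of 9 genes lie below 0, and the crosses lie below 0 for all 10, at -0.80 for *Aldh1a2* and -0.57 for *Krt8*.

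Further lists of genes placed these values in the tissue. Of 16 further mesothelial markers 12 were tested, none was called, and all 12 had log2 fold changes below 0, with a median of -0.29 (11 of 12 and -0.26 without control replicate 5). The 2 most abundant by rule were *Gpm6a*, a membrane glycoprotein, at -0.03 ± 0.13 (SE; adjusted p = 0.939), and *Efemp1*, an extracellular matrix protein, at -0.09 ± 0.10 (SE; adjusted p = 0.682). Both were at -0.12 without control replicate 5, the lowest control for *Gpm6a*. Picked after its values were seen, *Krt18*, the partner keratin of *Krt8*, had -0.79 ± 0.22 (SE; adjusted p = 0.0638), and -0.58 ± 0.16 (SE; adjusted p = 0.0607) without control replicate 5. *Prg4*, which encodes lubricin, was picked likewise. It had 229 normalized CPM in control replicate 5 and 5.69 to 30.2 in the other controls, and its log2 fold change of -2.17 was -0.21 without that library. *Calb2* and *Upk3bl*, at 0.0078 and 0.0501 normalized CPM in controls on average, fell under the filter, as did *Slpi* and *Cdh1*.

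Of 18 genes of the embryonic epicardium and of epithelial-mesenchymal transition 17 were tested and none was called, with a median of -0.01. The gene under the filter was *Scx*, the tendon and epicardial factor scleraxis, named after its values were seen. It had 0.509 to 2.80 normalized CPM in controls and 0 to 0.246 in iNICD, with every iNICD library below every control, and was not tested. The 2 most abundant were *Vim*, the intermediate filament vimentin, at -0.23 ± 0.17 (SE; adjusted p = 0.516), and *Tbx20*, a cardiac T-box factor, at 0.33 ± 0.10 (SE; adjusted p = 0.107). Without control replicate 5, *Vim* was at -0.07 and *Tbx20* at 0.29. Of 18 retinoic acid pathway genes beyond *Aldh1a2*, 13 were tested and none was called, with a median of 0.10 (0.03 without control replicate 5). The receptor *Rxra* had 0.16 ± 0.09 (SE; adjusted p = 0.366) and the receptor *Rxrb* 0.20 ± 0.07 (SE; adjusted p = 0.155). Without control replicate 5, 1 of the 13 was called higher, against 5.9% of all genes called in either direction. This was *Dhrs3*, a retinaldehyde reductase, at 0.49 ± 0.12 (SE; adjusted p = 0.0310, edgeR), against 0.61 ± 0.17 (SE; adjusted p = 0.0644) with all 12 libraries. The uroplakin *Upk1a* had -0.22 ± 0.24 (SE; adjusted p = 0.679). *Upk2* and *Upk3a* were not tested and averaged 0.0400 and 0.0069 normalized CPM in controls. None of 4 keratins of other epithelia was tested. The most abundant of these was *Krt14*, at 0.944 ± 1.27 normalized CPM in controls, and *Krt15* was at 0 in every library.

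Markers of other cell types were set beside these genes. Of 8 cardiomyocyte markers, 3 were called lower in iNICD, against 1.34% of all tested genes called lower. These were the atrial light chains *Myl4* (-0.75 ± 0.09, SE) and *Myl7* (-0.54 ± 0.13, SE) and the troponin *Tnnt2* (-0.44 ± 0.09, SE). Not called were *Myh6*, the most abundant, at -0.03, *Ttn* at -0.12, *Ryr2* at 0.07, *Tnni3* at -0.22 and *Actc1* at -0.46. Without control replicate 5, *Ttn* was at -0.06, *Ryr2* at 0.21 and *Actc1* at -0.17. The summed level of the 8 cardiomyocyte markers ran from 71458 to 86836 normalized CPM in controls, control replicate 5 being the highest, and from 59259 to 70600 in iNICD. Their median log2 fold change was -0.33, and -0.20 without control replicate 5. Among 8 fibroblast markers none was called, the median was 0.07 (0.02 without control replicate 5), and the summed level was 6795 to 9535 in controls and 7662 to 9935 in iNICD. The most abundant, *Gsn* and *Dcn*, had log2 fold changes of 0.01 and 0.08, and of -0.08 and 0.03 without control replicate 5. Among 8 endothelial markers none was called, with a median of -0.13, *Pecam1* at -0.23 and *Cdh5* at -0.05. Without control replicate 5 the median was -0.09, *Pecam1* was at -0.08 and *Cdh5* at -0.01. Among 7 tested leukocyte markers none was called, with a median of 0.08, *Lyz2* at 0.06 and *Csf1r* at 0.14 (0.07, 0.02 and 0.07 without control replicate 5). Of 8 smooth muscle and pericyte markers only *Cspg4*, a proteoglycan of pericytes, was called, at 1.89 ± 0.17 (SE; adjusted p = 2.87e-05). Over all tested genes 2.78% were called higher. *Rgs5* had 0.21. Of 8 Schwann cell markers 6 were tested and none was called (median 0.14). Without control replicate 5, *Mbp* was called lower, at -0.31 ± 0.08 (SE; adjusted p = 0.0408), where 5.9% of all genes were called in either direction. Adipocyte markers reached 26.2 normalized CPM in sum, and 3 were tested (median 0.01, *Car3* at -0.31 and *Cfd* at 0.01). Without control replicate 5 the median was -0.08, *Car3* was at -0.50 and *Cfd* at -0.08. None of the 8 lung epithelial markers was tested. The most abundant, *Napsa* and *Scgb1a1*, averaged 0.805 and 0.127 normalized CPM in controls. The 8 summed to 0.602 to 1.5 normalized CPM in controls and 0.205 to 1.90 in iNICD, with *Sftpb* and *Cldn18* at 0 in every library. The part of the *Myl4*, *Myl7*, *Tnnt2* and *Cspg4* changes in the marker values was not tested.

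**Figure D5:**
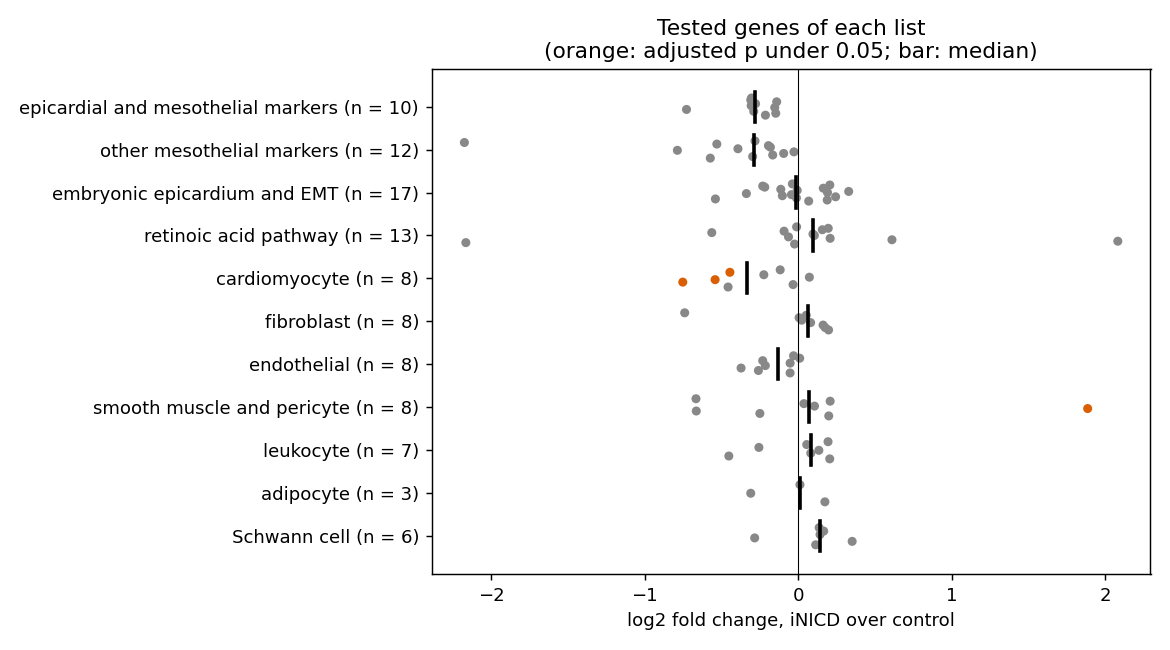
Log2 fold change of iNICD over control LA (x axis) for every tested gene of the lists with at least 3 tested genes (y axis, with the number tested), in orange where the adjusted p was under 0.05 and with a bar at the list's median. The 2 mesothelial lists lie left of 0 with medians of -0.28 and -0.29 and no orange point, while the orange points belong to the cardiomyocyte and the smooth muscle and pericyte lists.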

How the data were processed

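LA RNA of 12 mice was sequenced after rRNA depletion as 50-base single-end reads, stranded by the study's methods. The authors deposited raw counts per gene name with a gene length. The labels name cutadapt, STAR 2.4.2a and featureCounts on mm10, the study's methods describe 2 counting routes, and the table, which holds 37 mitochondrial genes, does not say which made it or whether counting used strand. Groups, replicate numbers and sexes came from the labels.

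Counts were normalized by TMM and fitted with edgeR 4.0.16 (quasi-likelihood test, two-sided, genotype only), keeping 13541 genes with CPM above 1 in at least 6 libraries, with Benjamini-Hochberg adjustment over all of them and a threshold of 0.05. Means and correlations were taken on log2 CPM (prior count 2). Single genes had an exact permutation test over 924 arrangements. DESeq2 1.42.0 was an alternative. Permutation p-values of pairs came from 100000 draws. The scripts were tested on simulated data. RPKM values used the deposited lengths. No pair of libraries of a group agreed within counting noise (lowest chi-square per gene 16.7).

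The 10 genes, the lists and the sex comparison were chosen with earlier results of these data known. Named besides the 10 were, of each list, up to 5 called genes in each direction or, under 2 calls, the 2 most abundant, and the 5 genes most like the marker mean. A further gene that this rule names is not reported here. Genes overlapping *Tbx18*, *Krt8*, *Aldh1a2* or *Bnc1* in GENCODE M21 had at most 5 counts, and *Krt8-ps* at most 2.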

Additional observations from a re-analysis of the deposited data

Results flagged for a closer look

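In each group of 6 libraries, the 10 marker genes, their mean and their summed level were examined for a library far from the others by Dixon's ratio, 24 groups in all, of which chance flags about 1 in 20. There were 2. *Krt8* in control replicate 5 had 12.7 normalized CPM where the other controls had 1.99 to 4.80, a gap of 0.739 of the range. The mean log2 CPM of the 10 genes in control replicate 6 was 4.10 where the other controls had 4.46 to 4.66, a gap of 0.641 of the range. Both libraries are the male controls.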

How the results depend on the processing

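No marker gene was called between genotypes in any of 24 alternatives (other tests, scalings, filters, covariates, blocks and libraries left out), in which the median log2 fold change of the 10 ranged from -0.36 to -0.15 and that of all genes from -0.02 to 0.02. The difference in the library mean ranged from -0.36 to -0.14 over 20 alternatives. Signs turned for *Aldh1a2* among females only (0.18) and without both control replicate 5 and iNICD replicate 4 (0.025, chosen after seeing the data), and for *Upk1b* among males only (0.056). Genes called over the whole table, 377 higher and 181 lower, were 615 and 444 with DESeq2, 280 lower with the edgeR exact test, 8 and 0 among males only, and 273 to 495 and 92 to 304 with 1 library left out. The lower count moved over 1.5 times without control replicates 1 (112), 4 (101) and 5 (304) and without iNICD replicates 1 (92), 3 (116) and 4 (109). Between the sexes, marker genes called were 1 with DESeq2 (*Lrrn4*) and 0 to 1 with 1 library left out. *Krt8* (0.23 with all libraries) ranged from -0.57 without control replicate 5 to 0.46 without control replicate 6 and was 0.79 in controls alone and -0.32 in iNICD alone, *Aldh1a2* turned to 0.15 in controls alone, and DESeq2 called 1 interaction. Apart from fewer samples in the reduced sets, the cause was not tested.

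Not every same-numbered pair deviated together (4 of 6 correlations over 0.1 by either numbering, range -0.15 to 0.37 by title number and -0.11 to 0.37 by description number), and 5 and 4 of 12 libraries correlated best with their own number. Under a replicate block the counts were 332 higher and 136 lower by title number, 285 and 136 by description number, and 0 marker genes were called. Depth limits *Krt8* most, with as few as 43 counts.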
